A study of Mus musculus with 6 samples.

Results

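Zfhx2, Zfhx3, Zfhx4 and Satb1 code for large homeobox transcription factors, and their transcripts were measured in mammary epithelial cells with and without Plk2. The members were all array probes whose transcript belongs to 1 of these 4 genes, which gave 4 of 20141 named genes and 6 of 55681 distinct gene probes: 2 for Zfhx2, 1 for Zfhx3, 2 for Zfhx4 and 1 for Satb1. The genes were picked with the null against wild-type difference already known, so their differences are given as a description with no p-value, and the count of members called is set beside that of all probes with nothing read from it. The samples were primary mammary epithelial cells, dissociated from the glands of female mice at 8 weeks of age on a 129sv/C57Bl6 background, with 3 samples of genotype Plk2 -/- (null) and 3 of genotype Plk2 +/+ (wild type), each hybridised to its own array. Plk2 is a polo-like serine/threonine kinase.

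The Zfhx proteins combine several homeodomains with many zinc fingers in 1 chain and bind AT-rich DNA. Zfhx3, also called ATBF1, was first described as a protein that binds an enhancer of the alpha-fetoprotein gene, and in breast and prostate tissue it is studied as a growth-restraining factor that meets oestrogen and progesterone receptor signalling. Satb1 carries CUT domains and a homeodomain, binds AT-rich regions that unpair easily, and organises chromatin loops, a role best known from developing T cells.

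Levels are log2 processed signals with the array's own 75th percentile subtracted, so a level of 0 equals that percentile, and levels of different probes are not compared. A probe was kept for the fit across the array where it was well above background on at least 3 of 6 arrays. Of the 55681 probes, 29015 were kept, among them 5 of the 6 member probes. The share of probes well above background ranged over 51.2% to 54.8% for null arrays and 50.2% to 52.3% for wild-type arrays, and no gene spot was saturated. Plk2 itself was not well above background on any null array, with a signal of 1.87 to 2.44 on null arrays and 1160 to 1472 on wild-type arrays. Its level was lower in null cells than in wild type (adjusted p = 3.63e-06 in limma). The fold was at least 152 with each null array set at the lowest level of any probe well above background there. No source used here says which part of Plk2 was deleted, so it is not known that the Plk2 probe lies in it. The epithelial keratins Krt8, Krt18, Krt5 and Krt14 and the adhesion molecule Epcam were well above background on all 6 arrays, as were the pan-leukocyte gene Ptprc and the fibroblast collagen gene Col1a1. None of these genes had an adjusted p under 0.05 in limma, and their differences varied in size. The null minus wild-type difference was -1.55 for Ptprc (limma, adjusted p = 0.101) and -0.41 for Col1a1 (limma, adjusted p = 0.183). It was 0.96 for Krt5, with overlapping groups (limma, adjusted p = 0.244), and 0.91 for Krt14 (limma, adjusted p = 0.176). For Krt8, Krt18 and Epcam it was -0.10, 0.06 and 0.09. All 6 arrays shared 1 slide, with all null arrays in row 2 and all wild-type arrays in row 1, so the row on the slide and the genotype cannot be told apart.

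Zfhx3 had the largest difference between genotypes among the 6 member probes. Its probe, A_55_P2106459 for transcript NM_007496 on chromosome 8, gave signals of 8.13, 5.72 and 3.22 in the 3 null samples, against 74.2, 117 and 135 in the 3 wild-type samples. In levels these were -5.25, -5.65 and -6.22 in null and -1.81, -1.10 and -1.07 in wild-type cells. All 3 null samples lay far below all 3 wild-type samples, with a gap between the groups wider than the range within either. Of the null samples 0 of 3 were well above background, against 3 of 3 wild-type samples.

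The mean level of Zfhx3 was -5.71 ± 0.49 in null and -1.33 ± 0.42 in wild-type cells (SD, n = 3 each), a difference of -4.38 (SE 0.37). Because the null signals were not well above background, only a bound on the fold is given: from the lowest detected levels, Zfhx3 was at least 12.8-fold lower in null cells. The bound sets the wild-type mean against a null mean of -5.00, in which each null array gives either the level of Zfhx3 or the lowest level of any probe well above background there, whichever is higher. Some probes above that lowest level were not well above background, so the bound rests on this choice and is not a strict limit. In bulk RNA, fewer cells that express a gene and less of its RNA per cell cannot be told apart, here and in all results that follow. With normexp background correction and an offset of 50 added to every signal, the Zfhx3 difference was -1.38.

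Satb1, the T cell chromatin organiser, was also lower in null cells but stayed well above background on all 6 arrays. Its probe, A_51_P324228 for transcript NM_009122 on chromosome 17, gave signals of 301, 219 and 340.2 in null samples, against 1604, 986 and 1176 in wild-type samples. In levels these were -0.04, -0.39 and 0.50 in null and 2.63, 1.98 and 2.05 in wild-type cells. The highest null sample, replicate 3, lay below the lowest wild-type sample, replicate 2, so the groups did not overlap.

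The mean level of Satb1 was 0.02 ± 0.45 in null and 2.22 ± 0.36 in wild-type cells (SD, n = 3 each), a difference of -2.20 (SE 0.33), which is a signal 4.58-fold lower in null cells. Its difference was the 260th lowest of the 29015. Measured from the wild-type mean, the null samples lay at -2.26, -2.61 and -1.72. For Zfhx3 the order among null samples is not measured, since none was well above background.

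**Figure D1:**
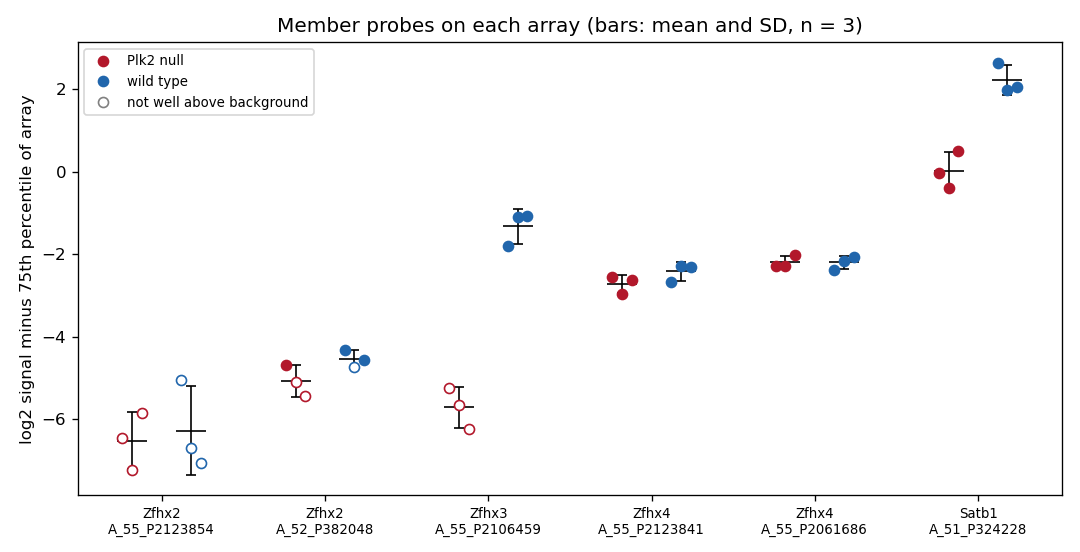
Levels of the 6 member probes on each array, as log2 signal minus the array's 75th percentile, with null arrays left of wild-type arrays for each probe. Points are arrays, open points were not well above background, and bars give the mean and SD of 3. The null points of Zfhx3 (-6.22 to -5.25) and of Satb1 (-0.39 to 0.50) lie below all wild-type points of the same probe, whereas the Zfhx2 and Zfhx4 groups overlap.

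Zfhx4, the close relative of Zfhx3 on chromosome 3, has 2 probes for transcript NM_030708, and on both the groups overlapped. On A_55_P2123841 the levels were -2.55, -2.97 and -2.63 in null and -2.68, -2.28 and -2.30 in wild-type cells. The lowest value was in null replicate 2 and the next lowest in wild-type replicate 1. The mean was -2.72 ± 0.22 in null and -2.42 ± 0.22 in wild-type cells (SD, n = 3 each), a difference of -0.30 (SE 0.18).

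On the other Zfhx4 probe, A_55_P2061686, the levels were -2.27, -2.28 and -2.03 in null and -2.37, -2.16 and -2.06 in wild-type cells. Null replicate 3 was the highest of the 6 and wild-type replicate 1 the lowest. The difference was 0.0046 (SE 0.12), smaller than the SD within either group. Both Zfhx4 probes were well above background on all 6 arrays.

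Zfhx2, a family member on chromosome 14 best known from the nervous system, was at the edge of detection in both genotypes. On A_52_P382048, for transcript NM_001039198, the levels were -4.67, -5.09 and -5.43 in null and -4.32, -4.73 and -4.55 in wild-type cells. It was well above background in null replicate 1 and in wild-type replicates 1 and 3 only. The groups overlapped, since null replicate 1 lay above wild-type replicate 2, and the difference was -0.53 (SE 0.25). The other Zfhx2 probe, A_55_P2123854, was well above background on none of the 6 arrays and was not kept. Its signals were 3.53, 1.90 and 4.16 in null and 7.81, 2.43 and 2.11 in wild-type cells, with the groups overlapping.

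Of the 5 kept member probes, 2 had an adjusted p under 0.05 in the limma fit and were lower in null cells, those of Zfhx3 and Satb1, and 0 were higher. Over all kept probes, 0.41% were called lower and 0.248% higher. The same 2 member probes were those with no overlap between groups in the lower direction, where 12.4% of kept probes had none, and 0 had none in the higher direction, where 18.9% of kept probes had none. The 4 genes were picked from this contrast, so nothing is read from these counts. Both calls were lost when the replicate number was a block. No sign was seen that the replicate numbers pair the samples, though 3 samples per group cannot exclude it. The block left few calls among all kept probes. The Satb1 call was also lost when no probe was filtered out and when any 1 array other than null replicate 3 was left out. The SD within groups, pooled over genotypes, was 0.40 for Satb1, against a median of 0.25 over all kept probes.

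**Figure D2:**
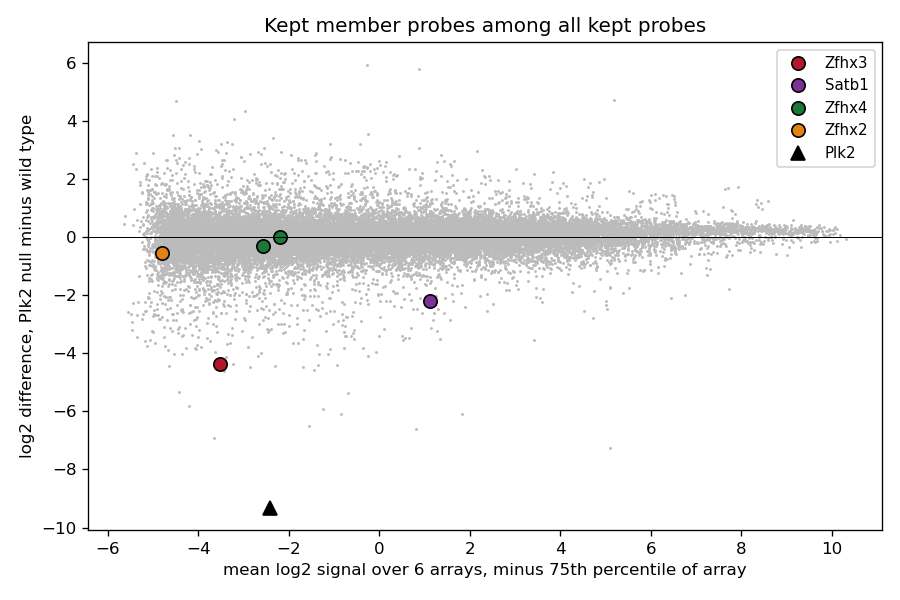
Difference between null and wild-type means (log2, vertical axis) against the mean level over 6 arrays (log2, horizontal axis) for the 29015 kept probes, with the kept member probes and Plk2 marked. Zfhx3 at -4.38 and Satb1 at -2.20 lie in the lower part of the cloud, and the Zfhx4 and Zfhx2 probes lie between -0.53 and 0.0046.

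The promoters of the 2 members that were lower in null cells are shown for their base composition. Each is the 250 bases before a transcript start in RefSeq on GRCm38.p6, printed in the direction of transcription with each CpG in capitals; Zfhx3 is chr8:108714394-108714643 on the plus strand and Satb1 is chr17:51832648-51832897 on the minus strand, the most CpG-rich of its 5 listed starts.
Zfhx3: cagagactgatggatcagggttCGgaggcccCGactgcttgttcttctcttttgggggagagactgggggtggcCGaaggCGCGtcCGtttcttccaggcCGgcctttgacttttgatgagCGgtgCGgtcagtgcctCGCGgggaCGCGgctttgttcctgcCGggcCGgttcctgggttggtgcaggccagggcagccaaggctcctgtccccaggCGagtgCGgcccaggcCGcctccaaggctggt
Satb1: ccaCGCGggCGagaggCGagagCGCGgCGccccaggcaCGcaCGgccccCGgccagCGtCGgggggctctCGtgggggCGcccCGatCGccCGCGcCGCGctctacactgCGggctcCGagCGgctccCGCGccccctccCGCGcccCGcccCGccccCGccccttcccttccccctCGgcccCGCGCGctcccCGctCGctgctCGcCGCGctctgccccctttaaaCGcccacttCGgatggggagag
The Zfhx3 window holds 18 CpG and is 66% G and C, and the Satb1 window holds 41 CpG and is 80.8% G and C, against medians of 6 CpG and 52.4% over 32851 RefSeq windows of the same length. The GC box (GGGCGG or its reverse complement) was found 3 times in the Satb1 window and 0 times in the Zfhx3 window, and 32.7% of all windows hold it. Neither window holds CCAAT or TATAAA on either strand, which 33.8% and 12.4% of all windows hold. The other 4 Satb1 starts had between 3 and 12 CpG and 50.8% to 58% G and C, below the Zfhx3 window on both. The array does not tell which start was in use, so the order of the 2 genes depends on the start chosen. The single Zfhx2 window, on chromosome 14, holds 15 CpG and 1 GC box.

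Genes that flank the members on their chromosomes were looked at after the data had been seen, taking the nearest 3 protein-coding genes with a kept probe on each side. This gave 21 genes, 6 each for Zfhx2, Zfhx3 and Satb1 and 3 for Zfhx4, which had such genes on 1 side. Of the 21, 0 were called by limma at an adjusted p of 0.05, whereas 0.658% of all kept probes were called in either direction. The 6 genes around Zfhx3 differed by -1.24 to 0.32, with Psmd7, a proteasome subunit gene, at 0.12 (SE 0.06) and Hp, the haptoglobin gene, at -1.24 (SE 0.56; limma, adjusted p = 0.175). The 6 around Satb1 differed by -0.66 to 0.21, with Tbc1d5 next to it at 0.02 (SE 0.10). The 6 around Zfhx2 differed by -0.81 to 1.04, a range wider than the -0.53 of its kept probe, and the 3 beside Zfhx4 by 0.03 to 0.32.

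The other homeobox genes with zinc fingers were not called where tested, and neither were most kept probes. Of 11 listed, 10 had a kept probe, and 9 of these 10 had a difference below 0 as reported but 5 of 10 with spike-in scaling. In the fit 0 were called, against 0.658% of all kept probes, and 3 had an unadjusted p under 0.05, against 22.8%. Their median difference was -0.23, against 0.03 over all kept probes, of which 47.4% were below 0; with spike-in scaling, which moves the median of all kept probes to 0.30, it was 0.04. Tshz3, a teashirt family repressor, differed by -0.77 (SE 0.16; limma, adjusted p = 0.0845). Zeb1, a repressor of epithelial genes, differed by -0.75 (SE 0.23; limma, adjusted p = 0.119). Its paralogue Zeb2 differed by -0.35 (SE 0.27; limma, adjusted p = 0.427). Zhx3 differed by -0.62 (SE 0.10; limma, adjusted p = 0.0896), and Adnp2 by -0.36 (SE 0.11; limma, adjusted p = 0.22). On Tshz3, Zeb1, Zhx3 and Adnp2 the null groups lay below the wild-type groups without overlap, which 12.4% of all kept probes did, yet no difference exceeded 1 in size.

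Among the other homeobox genes of the CUT class, 2 of 6 had a kept probe and 0 were called, against 0.658% of all kept probes. Cux1, a widely expressed CUT factor, differed by 0.13 (SE 0.09) on its brightest probe, and by -0.83 and -0.37 on its other 2 kept probes, so its probes disagreed in sign. Onecut2, an epithelial CUT factor first studied in liver, differed by 0.79 (SE 0.64) and was well above background on 2 of 3 null and 1 of 3 wild-type arrays.

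**Figure D3:**
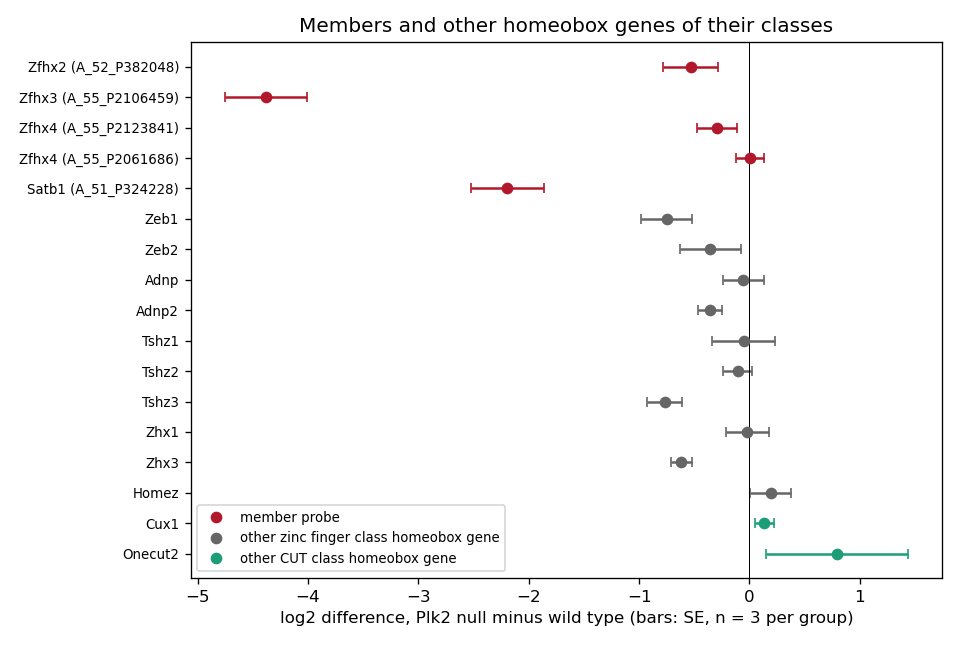
Difference between null and wild-type means (log2, horizontal axis; bars are the SE, n = 3 per group) for the 5 kept member probes and the other zinc finger and CUT class homeobox genes with a kept probe. Zfhx3 and Satb1 lie at -4.38 and -2.20, and the other genes lie between -0.77 and 0.79.

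Genes reported to work with Zfhx3 or to be controlled by it include the steroid receptors Pgr and Esr1, the cell cycle inhibitor Cdkn1a and the Runt factor Runx3. Of 9 listed, 6 had a kept probe, and 1 was called, against 0.658% of all kept probes. All 6 were below 0 with a median of -0.54 as reported, and 4 of 6 with a median of -0.27 with spike-in scaling. Pgr, the progesterone receptor gene, had signals of 336, 188 and 169 in null and 1017, 738 and 725 in wild-type cells. All 3 null samples lay below all 3 wild-type samples, and Pgr fell by 1.96 on the log2 scale (SE 0.29; limma, adjusted p = 0.0389), with -2.33 on its other kept probe. The Pgr call was lost without a filter, with the replicate block and when any 1 array other than null replicate 3 was left out (differences of -2.19 to -1.79, adjusted p up to 0.124 in limma). Esr1, the oestrogen receptor alpha gene, differed by -0.92 (SE 0.31; limma, adjusted p = 0.123). Its groups did not overlap, which held for 12.4% of all kept probes in that direction. The other kept probes of Esr1 differed by -1.01 and -1.10 (limma, adjusted p = 0.0822 and 0.0678). Cdkn1a differed by -0.46 (SE 0.16) on its brightest probe and by 0.69 on its other kept probe, so its probes disagreed in sign. Runx3 differed by -0.62 (SE 0.37), and by -0.87 on its other kept probe. The alpha-fetoprotein gene Afp had no kept probe.

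Genes for proteins reported to bind Satb1, mostly chromatin enzymes, had 0 called, against 0.658% of all kept probes. All 9 listed had a kept probe, 0 of the probes used had an unadjusted p under 0.05, and 3 were below 0 with a median of 0.03, against 0 below 0 with a median of 0.30 with spike-in scaling. The deacetylase genes Hdac1 and Hdac2 differed by 0.46 (SE 0.23) and 0.37 (SE 0.22), and the other 2 kept probes of Hdac1 by 0.68 and 2.32 (limma, adjusted p = 0.23 and 0.177). The other named differences were those of the corepressor gene Ctbp1, 0.19 (SE 0.08), and the beta-catenin gene Ctnnb1, 0.22 (SE 0.11).

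Lymphocyte markers had lower values in null samples, as Satb1 did, but few passed the test. Of 20 T cell markers 18 had a kept probe, all 18 were below 0 (17 of 18 with spike-in scaling) and the median was -2.51. In 17 of the 18 the null group lay below the wild-type group without overlap, against 12.4% of all kept probes, and 1 of the 18 was called lower, against 0.41%. The called gene was Cd8b1, a T cell co-receptor gene, with signals of 4.78, 4.96 and 10.3 in null and 50.6, 37.3 and 40.3 in wild-type cells. Of the null samples only replicate 3 was well above background for Cd8b1, and the difference was -2.83 (SE 0.48; limma, adjusted p = 0.0457) but -0.73 with normexp correction and -0.72 with the deposited values. The Cd8b1 call was lost with quantile normalization, without a filter, with the replicate block and without any 1 array other than null replicate 3 (differences of -2.92 to -2.56), and the count of T cell markers called ran over 0 to 14 with 1 array left out. The receptor chain gene Cd3e differed by -2.12 (SE 0.47; limma, adjusted p = 0.0595). The summed signal of the 18 T cell markers was 2231 to 3316 on null arrays and 7678 to 13015 on wild-type arrays. Of the T cell markers, Cd247 was not well above background on any null array, and 15 of 18 were well above background on all 3. The list's median, measured from the wild-type mean, was -2.96, -3.20 and -1.39 in the null samples and 0.46, -0.25 and -0.22 in the wild-type samples. From highest to lowest, the 6 arrays stood in 1 order for this list's median, for the B cell list's median and for Satb1. Wild-type replicate 1 was highest and null replicate 2 lowest, as also for the fibroblast, Schwann cell, hormone-sensing luminal and macrophage and dendritic cell medians. The fibroblast, Schwann cell and hormone-sensing luminal medians departed from the order of Satb1 only in wild-type replicates 2 and 3. The part of lymphocytes in the Satb1 difference was not tested.

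B cell markers had 13 of 15 kept, all 13 below 0, and a median of -2.49. In the fit 0 of them were called (0.658% of all kept probes) and 12 had an unadjusted p under 0.05 (22.8% of all kept probes). The summed signal of these B cell markers was 2729 to 3144 on null arrays and 5765 to 9069 on wild-type arrays. The antigen receptor gene Cd79b differed by -2.49 (SE 0.54; limma, adjusted p = 0.0561), and Cd79a was well above background on 2 of 3 null arrays.

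Markers of hormone-sensing luminal cells, the epithelial cells that carry the oestrogen and progesterone receptors, had 13 of 13 kept and 11 below 0. Their median was -0.78, and 1 was called (Pgr), against 0.658% of all kept probes. Greb1, an oestrogen-induced gene, differed by -2.77 (SE 0.57; limma, adjusted p = 0.0516) and Tnfsf11, the progesterone-induced ligand gene RANKL, by -3.00 (SE 1.09; limma, adjusted p = 0.117). The list's median from the wild-type mean was -1.03, -1.44 and -0.22 in the null samples, and its summed signal was 78590 to 107551 on null arrays and 95229 to 100930 on wild-type arrays. The part of this cell type in the Zfhx3 difference was not tested.

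The other markers had median differences between -0.68 and 0.51 and 0 called genes, against 0.658% of all kept probes. Schwann cell markers had the lowest of these medians and basal and myoepithelial markers the highest. Pan-luminal markers had a median of -0.01, fibroblast markers of -0.49 and endothelial markers of -0.47 with 14 of 14 below 0 in each (11 of 14 with spike-in scaling), and macrophage and dendritic cell markers of -0.51. Pericyte and smooth muscle markers had a median of -0.44, adipocyte markers of 0.23, and luminal progenitor and alveolar markers of 0.29.

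**Figure D4:**
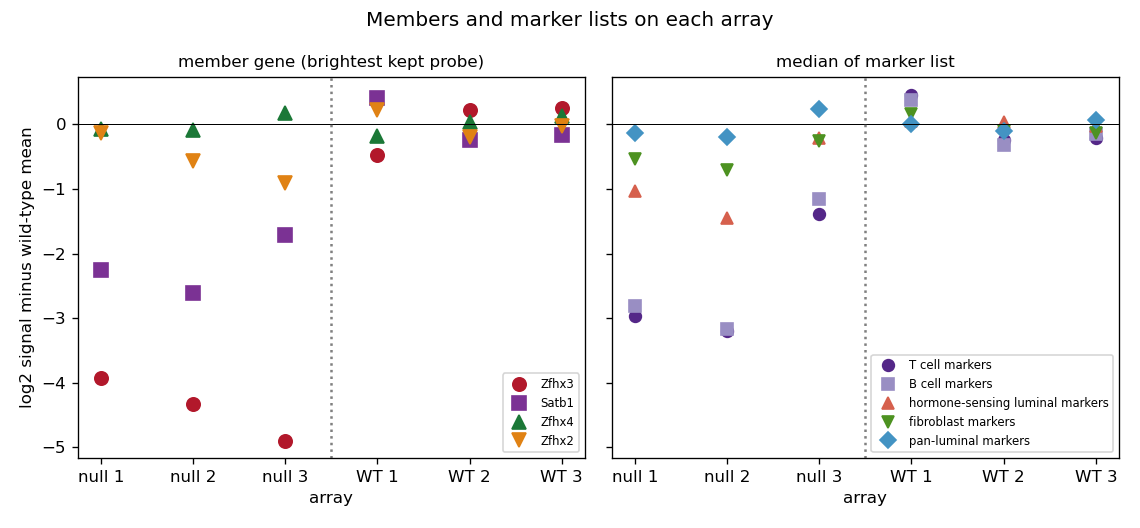
Log2 signal minus the wild-type mean on each array, for the brightest kept probe of each member gene on the left and for the median of 5 marker lists on the right, with null arrays left of wild-type arrays. In the null samples Zfhx3 lies between -4.90 and -3.92 and Satb1 between -2.61 and -1.72, and the T cell list median lies between -3.20 and -1.39.

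The genes whose profiles over the 6 arrays were most like those of the members were found by the root mean square difference after each probe's mean was subtracted, over 28964 kept probes. For Satb1 the 5 nearest were Ptpn22 at a distance of 0.11, Galnt6 at 0.12, Dnah8 at 0.14, Fam78a at 0.17 and Tgm2 at 0.19. Their differences lay between -2.36 and -2.09, around that of Satb1, as this measure of likeness requires. For Zfhx3, whose null values were below background and make this measure inexact, the 5 nearest lay farther away, with Fermt1 at 0.63, Cyp3a25 and Rasgrf1 at 0.68, and Hyal3 and Zc3h12d at 0.71 and 0.72. Of these, Fermt1, Hyal3 and Zc3h12d were, as Zfhx3 was, well above background in every wild-type sample and in no null sample. With the bound used for Zfhx3, they were at least 3.32-fold, 2.20-fold and 5.92-fold lower in null cells. In all, 95 kept probes were well above background in every wild-type sample and in no null sample, and 203 showed the reverse. Cyp3a25, a cytochrome P450 gene, had signals of 423, 244 and 98.6 in null and 2081, 1704 and 2117 in wild-type cells and was well above background on all 6 arrays.

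The nearest profiles to the brighter Zfhx4 probe were those of Gba2, Thumpd3, Fbxw2, Parva and Tubb6, at distances of 0.032 to 0.046. For the kept Zfhx2 probe they were Runx2, Slk, Crebrf, Gp1bb and E130308A19Rik, at 0.060 to 0.076. Runx2, a bone and mammary Runt factor, was well above background on the same 3 arrays as Zfhx2, null replicate 1 and wild-type replicates 1 and 3, and differed by -0.56 (SE 0.22). The 5 genes near Zfhx4 had adjusted p-values of at least 0.847 in limma. This measure of likeness requires differences near that of the member, for these genes and for Runx2, so nothing is read from them.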

How the data were processed

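RNA was extracted with Trizol and amplified and labelled with Cy3, per the labels' protocols. Per the file headers, arrays of Agilent design 028005, annotated on mm9, were read with Feature Extraction 11.0.1.1 under protocol GE1_1100_Jul11, and the deposited intensity is a background-subtracted processed signal not scaled between arrays. A further deposited table holds normalized intensities of the same arrays and served as an alternative source of values; its p-values, ratio and score by the authors were not used, and no source used here gives its normalization method.

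Control spots and 1119 outlier gene spots were left out, spots of a probe averaged, and log2 signals centred on each array's 75th percentile. A probe was well above background where at least 0.5 of its spots were. Probes were named by matching accessions to RefSeq transcripts (GRCm38.p6, used for names, gene order and promoters); 26576 matched, for 20141 genes. All 29015 kept probes were fitted with lmFit and eBayes (limma 3.58.1, R 4.3.3), and called at 0.05 after Benjamini-Hochberg adjustment. For listed genes the kept probe with the highest mean was used. SEs of differences come from the SDs of the groups. The number of arrays limits the precision. The labels do not say that samples came from separate animals, so p-values measure the spread between these samples, which may be technical; an exact test of 3 against 3 cannot give a two-sided p under 0.1.

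The members and lists were chosen with earlier results of these data known. Named were Plk2, all member probes, the 5 nearest profiles of each member, genes among the 4 smallest p-values of a list, and a fixed set of lineage genes, some of which are not reported here; Hp, Tbc1d5 and Psmd7 were singled out after their values were seen. Alternatives were normexp correction, quantile, median and spike-in scaling, the deposited values, other filters, trended robust moderation, 1 probe per gene, the mean of a gene's probes, the replicate number as a block, and each array left out. The steps were tested on simulated data.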

Additional observations from a re-analysis of the deposited data

How the results depend on the processing

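As reported, 119 probes were called lower and 72 higher in null cells. Lower and higher counts were 628 and 807 with normexp correction, 195 and 199 with median centring, 185 and 360 with spike-in scaling, 465 and 452 with the deposited values, 44 and 11 without a filter, 260 and 279 with probes well above background on all 6 arrays, and 512 and 575 with trended robust moderation; quantile normalization gave 47 higher. With the replicate block they were 7 and 2. Deviations of same-numbered samples correlated at -0.12, 0.03 and -0.03, which gave no sign of pairing but cannot exclude it with so few samples. Leaving out 1 array gave 10 to 594 lower and 1 to 272 higher, with the highest counts, 594 and 272, without null replicate 3; the other 5 arrays each gave 10 to 41 lower and 1 to 22 higher. Spike-in scaling moved the median of all probes to 0.30, and no filter moved it to -0.11.

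The 2 called member probes became 1 without a filter, 1 with all 6 arrays required (where Zfhx3 was not tested) and 0 with the replicate block, and 1 to 2 with 1 array left out. Without null replicate 1, null replicate 2 or any wild-type replicate Satb1 was not called, and without null replicate 3 it was. The Satb1 difference was -2.43 to -1.99 over all 6 of these fits, called or not. The Zfhx3 difference was -1.38 with normexp correction and -1.42 with the deposited values, the first of which adds 50 to every signal, and -4.62 to -4.12 with 1 array left out. The kept Zfhx2 probe gave -0.16 and -0.11 under those 2 settings and -0.73 to -0.35 with 1 array left out, and the other Zfhx2 probe -0.64 to 0.36. The Zfhx4 probes gave -0.024 (A_55_P2123841) and 0.28 (A_55_P2061686) with spike-in scaling. That scaling subtracts 1 value per array from every probe, so it shifts all differences alike. The median of all kept probes moved from 0.03 to 0.30 with it. With 1 array left out these probes gave -0.43 to -0.17 and -0.08 to 0.07, and the cause of those changes was not tested.

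Of the lists, the zinc finger homeobox genes had 2 called with normexp correction. The Zfhx3 partners had 0 called without a filter and 0 with the replicate block, and 0 to 1 with 1 array left out. T cell markers had 13 called with normexp correction, 0 with quantile normalization, 5 with median centring, 10 with spike-in scaling, 13 with the deposited values, 0 without a filter, 7 with all 6 arrays required, 0 with the block, 14 with trended robust moderation and 0 to 14 with 1 array left out. B cell markers had 8, 1, 2, 3, 2 and 2 called with normexp correction, median centring, spike-in scaling, the deposited values, all 6 arrays required and trended robust moderation, and 0 to 8 with 1 array left out. Hormone-sensing markers had 2 called under each of those 6 settings, 0 without a filter, 0 with the block and 0 to 4 with 1 array left out. Among the member probes and the named genes checked, no called difference changed sign under the alternatives. The other called probes were not checked for this. Signals near background limit Zfhx2 and the null level of Zfhx3.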
